A study of Mus musculus with 6 samples.

Results

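The genes described here encode the ligand TGF-beta 1 and the proteins that process, hold, activate, receive and transmit it: Tgfb1, Furin, Lrrc32, Itgav, Itgb8, Tgfbr1, Tgfbr2, Tgfbr3, Smad3 and Smad7. They were taken by symbol from the deposited table, which held all 10 among its 32801 gene rows. RNA was sequenced from regulatory T cells (Treg), a CD4+ lineage that keeps other lymphocytes in check, taken from the thymus at 3 weeks of age. NOD mice, which become diabetic through autoimmunity without treatment, gave 3 libraries, and C57BL/6 (B6) mice, from which the mm10 genome was assembled, gave the other 3. All cells of both strains were sorted as GFP-negative, CD4+CD8- and Thy1.1+. What GFP and Thy1.1 report, and whether animals were pooled, is not stated in the labels. Nothing there says that replicates are separate animals, so the p-values measure only the spread between samples, possibly technical. These groups allow a single comparison, NOD against B6.

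TGF-beta 1 is made as a precursor that the protease furin cleaves, after which the mature cytokine stays caged in its own propeptide as a latent complex. On Treg the complex is held at the surface by GARP, the product of Lrrc32, and the integrin of the alpha V and beta 8 chains (Itgav and Itgb8) pulls on the propeptide and frees the cytokine. The freed ligand binds the type II receptor (Tgfbr2), which recruits and phosphorylates the type I receptor (Tgfbr1). The type I receptor phosphorylates SMAD2 and SMAD3, which enter the nucleus with SMAD4. SMAD7 is induced by the pathway and blocks the type I receptor. In the thymus, TGF-beta signalling favours Treg development and survival.

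The sequences before the start sites are shown for the integrin partners, which fell together in NOD, and for Tgfbr2 as a gene that was not called. RefSeq windows (GRCm38.p6) of the 250 bases before the start were matched for 7 of the 10 genes, in 9 windows, with more than one start for Furin and Tgfbr1. They were searched on both strands for the SMAD element CAGAC and for the GC-rich SMAD site GGCGC, which do not overlap each other in the sequences printed. In the Itgav window (chr2:83724147-83724396, plus strand) capitals mark GGCGC or its reverse complement. In the Tgfbr2 window (chr9:116175364-116175613, minus strand) and in a stretch of 30 bases of Itgb8 (chr12:119238455-119238484, minus strand, inside an annotated GENCODE exon) capitals mark CAGAC.
Itgav: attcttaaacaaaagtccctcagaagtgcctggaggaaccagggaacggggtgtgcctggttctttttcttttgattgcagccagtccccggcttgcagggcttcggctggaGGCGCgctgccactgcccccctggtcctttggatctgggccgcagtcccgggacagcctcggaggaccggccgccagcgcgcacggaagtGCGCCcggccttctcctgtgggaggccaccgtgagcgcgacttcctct
Itgb8: tgcccgcgagtgCAGACaggagcttctagg
Tgfbr2: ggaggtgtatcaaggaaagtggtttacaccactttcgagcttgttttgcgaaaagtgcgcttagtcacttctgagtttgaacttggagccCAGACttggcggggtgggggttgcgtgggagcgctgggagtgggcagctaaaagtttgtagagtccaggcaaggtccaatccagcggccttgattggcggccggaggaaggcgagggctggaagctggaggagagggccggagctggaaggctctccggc
CAGAC occurred in 5 of the 9 windows, before 4 of the 7 genes (Furin, Itgb8, Tgfbr1 and Tgfbr2). It was in 42.2% of all 32851 promoter windows of this length. GGCGC also occurred in 5 of the 9 windows, before 5 genes (Furin, Itgav, Itgb8, Tgfb1 and Tgfbr1), and in 32.0% of all windows. The SMAD palindrome GTCTAGAC, in 0.167% of all windows, was in none of the 9. These matches are letters in a window and do not show that a factor binds there.

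Values are given in normalized counts, whole numbers that the authors scaled for library size, with library totals from 16097369 to 17625903. The gaps left by rounding put the reads counted over the gene rows at an estimated 15500000 to 21600000 per library, which leaves out reads not assigned to a gene. Foxp3, which specifies Treg, ranged from 1701 to 2446 normalized counts over the 6 libraries. Cd4 stood at 7248 to 7952 in NOD and 5825 to 6407 in B6, without overlap (limma adjusted p = 0.077). Of 6 sort and identity genes, Thy1 and Cd3e rose in NOD and the other 4 were not called. The 6 markers of immature thymocytes summed to 238 to 320 normalized counts in NOD and 250 to 304 in B6, with members moving both ways. Cd8a, which the sort selected against, rose, at 124, 35 and 100 in NOD libraries 2, 10 and 18 and 10, 17 and 18 in B6 libraries 4, 12 and 20 (limma adjusted p = 0.0075). The other CD8 chain, Cd8b1, was at 117 to 135 in NOD and 99 to 131 in B6 and was not called (limma adjusted p = 0.65). Rag1, of the antigen receptor recombinase, fell, at 49, 55 and 67 against 155, 100 and 111 (limma adjusted p = 0.017). Dntt was at 8 to 17 in NOD and 25 to 34 in B6 and was not called (limma adjusted p = 0.095). The part of these cells in the results below was not tested. Libraries are named by the number in their column, which is not a replicate number of the labels. NOD library 10 and B6 library 12 stood apart from the rest in mitochondrial ribosomal RNA, with mt-Rnr2 at 257196 and 288776 normalized counts against 819983 to 1248570 in the other 4. Each call below was therefore also computed with a covariate for these 2 libraries and without them.

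All 10 genes passed the filter on low values (10 normalized counts or more in 3 libraries). With limma on log2(value + 1), 4 of the 10 were called at an adjusted p below 0.05: Itgav, Itgb8 and Lrrc32 fell in NOD and Tgfbr3 rose. Of all 16442 genes tested, 9.89% were called (4.59% higher and 5.3% lower). Before adjustment limma gave a p below 0.05 for 6 of the 10 and for 20.3% of all genes tested. The strains did not overlap for 6 of the 10 genes, where 24.1% of all genes tested did not overlap. The median log2 fold change of the 10 was -0.19, and that of all genes tested was 0.01. The genes were chosen with earlier results of these data known, so these shares describe the list and do not test it. In bulk samples, fewer cells that express a gene and less of its RNA per cell cannot be told apart.

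**Figure D1:**
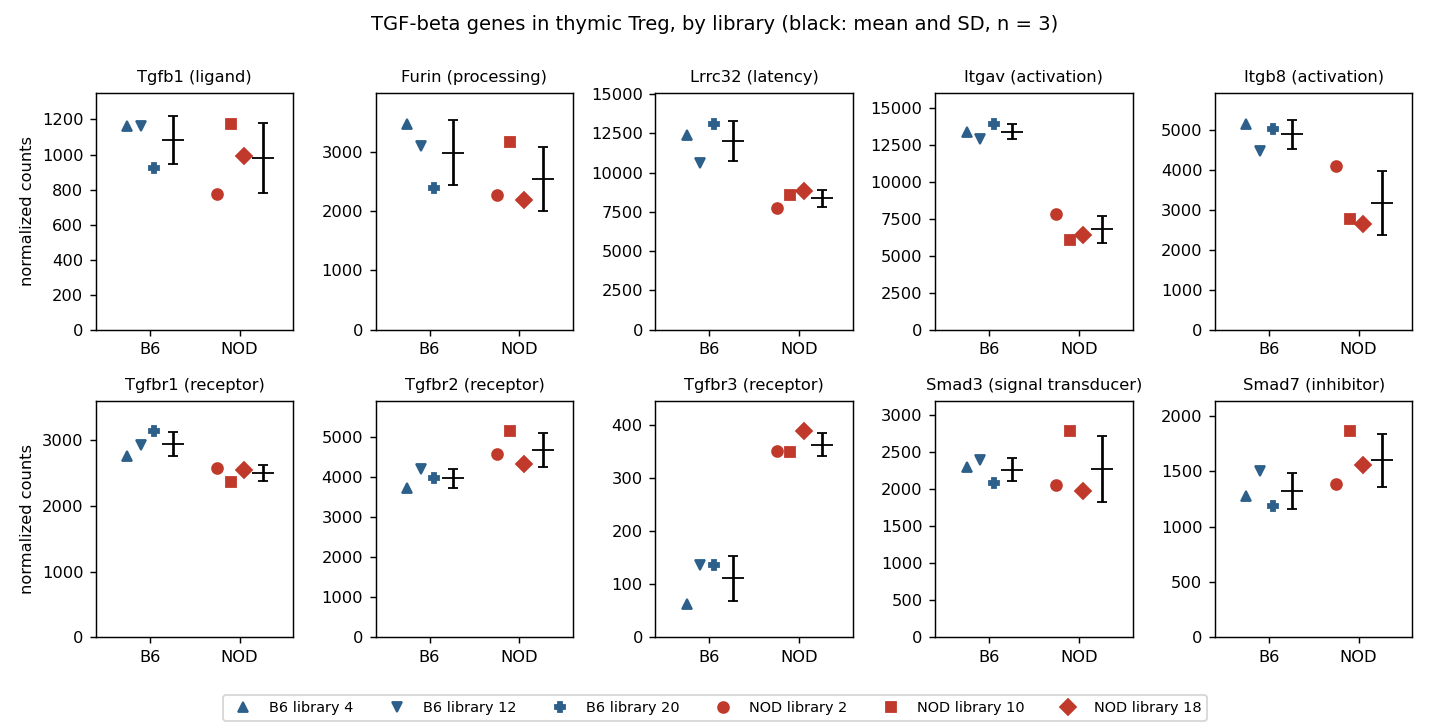
Normalized counts (vertical axes, from 0, each gene on its own scale) of the 10 genes in the 3 B6 libraries (blue) and the 3 NOD libraries (red), 1 point shape per library, with the mean and SD (n = 3) in black. Itgav, Itgb8, Lrrc32 and Tgfbr1 lie lower in every NOD library than in any B6 library, Tgfbr2 and Tgfbr3 lie higher, and Tgfb1, Furin, Smad3 and Smad7 overlap.

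Transcript of the ligand and of its processing protease did not differ beyond the spread between libraries. Tgfb1 (chr7:25687002-25705077, mm10) stood at 777, 1175 and 994 in NOD libraries 2, 10 and 18, and at 1163, 1163 and 925 in B6 libraries 4, 12 and 20. The ranges overlapped, with NOD library 10 the highest of all 6. Its log2 fold change was -0.15 (95% interval -0.51 to 0.20, limma adjusted p = 0.69). Furin (chr7:80388585-80405436), the convertase that cuts the precursor, stood at 2271, 3165 and 2193 in NOD and at 3472, 3100 and 2390 in B6. Here too NOD library 10 reached into the B6 range. The log2 fold change of Furin was -0.24 (95% interval -0.60 to 0.13, limma adjusted p = 0.51). A p that misses the threshold does not show that the strains are alike, and the intervals give the differences still allowed.

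Lrrc32 (chr7:98489283-98502181), whose product GARP docks latent TGF-beta on the Treg surface, was lower in NOD. It stood at 7763, 8559 and 8800 normalized counts in NOD libraries 2, 10 and 18 and at 12383, 10603 and 13103 in B6 libraries 4, 12 and 20. Every NOD library lay below every B6 library, and the mean was 30.4% lower. It fell by 0.52 on the log2 scale (SE 0.11, limma adjusted p = 0.012). Leaving out NOD library 2 (limma adjusted p = 0.065) or B6 library 4 (0.059) ended the call, and the other 4 single omissions kept it. In the authors' deposited table the log2 fold change of Lrrc32 was -0.52 with an SE of 0.33 and an adjusted p of 0.45, so it was not called there, where 9.75% of genes with an adjusted p were.

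Both chains of the integrin that frees TGF-beta were lower in NOD. Itgav, the alpha V chain (chr2:83724397-83806916), stood at 7825, 6097 and 6432 normalized counts in NOD libraries 2, 10 and 18 and at 13381, 12884 and 13922 in B6 libraries 4, 12 and 20. The highest NOD library was far under the lowest B6 library, and the B6 mean was 1.97 times the NOD mean. The log2 fold change was -0.99 (95% interval -1.24 to -0.74, limma adjusted p = 0.00018), and -0.92 to -1.10 with any single library left out, with the call kept each time. Ordered from the lowest fold change, Itgav was number 824 of the 16442 genes tested.

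Itgb8, the beta 8 chain (chr12:119158022-119238802), pairs only with alpha V. It stood at 4085, 2771 and 2643 normalized counts in NOD libraries 2, 10 and 18 and at 5141, 4470 and 5015 in B6 libraries 4, 12 and 20. NOD library 2 was the highest of its strain for both chains and for Itgb8 lay closest to the B6 range. The log2 fold change was -0.65 (95% interval -0.99 to -0.31, limma adjusted p = 0.020). It ranged from -0.53 to -0.85 over single omissions. Omitting NOD library 18 ended the call (limma adjusted p = 0.11), as did omitting B6 library 4 (0.096), B6 library 20 (0.066) or both libraries low in mt-Rnr2 (0.11). In the authors' deposited table both were called, Itgav at -0.98 (SE 0.22, adjusted p = 0.00018) and Itgb8 at -0.62 (SE 0.17, adjusted p = 0.0057).

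Dendritic cells also carry the alpha V and beta 8 integrin, so their markers were read beside these genes. The 14 markers of dendritic cells and macrophages summed to 844 to 937 normalized counts in NOD libraries and to 1261 to 1561 in B6 libraries, lower in NOD as the integrin chains were. Of 8 tested markers, 2 fell, Cd74 (315 to 406 in NOD and 654 to 792 in B6) and H2-Aa (31 to 66 and 72 to 176), and none rose. Most of the gap between the sums came from Cd74. H2-Ab1 was at 42 to 57 in NOD and 77 to 110 in B6, without overlap, and was not called (limma adjusted p = 0.054). H2-Eb1 lay the other way, at 195 to 345 in NOD and 121 to 199 in B6, and was not called (limma adjusted p = 0.14). Adgre1 was at 0 to 2 in NOD and 9 to 22 in B6. Lyz2 was at 3 to 15 and 13 to 38 and was not called (limma adjusted p = 0.068). The defining marker Itgax was at 2 to 5 in NOD and 4 to 16 in B6. Over the 6 libraries Flt3 was at 4 to 9 and Clec9a at 0 or 1. Xcr1 stood higher, at 56 to 99 in NOD and 84 to 94 in B6. Cd68 did too, at 66 to 91 and 74 to 102, and neither was called. The part of dendritic cells and macrophages in the integrin result was not tested. Platelets carry GARP and TGF-beta 1, and their 7 markers summed to 102 to 148 in NOD and 88 to 172 in B6. Most of this came from Itga2b, at 51 to 107 and 41 to 117, and Gp1ba, at 34 to 48 and 42 to 78, neither called. Gp1bb and Ppbp were at 0 in every library and Pf4 at 0 or 1. The part of platelets in the Lrrc32 and Tgfb1 values was not tested.

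Overlapping genes bear on 3 of the 10. The antisense transcript Gm13684 shares 634 exonic bases with Itgav and was listed at 275, 207 and 213 normalized counts in NOD and at 607, 784 and 292 in B6. Whether counting used strand is not given in the sources used here, so reads of the shared bases cannot be told apart. The part of this overlap in the Itgav result was not tested. Furin shares 118 exonic bases with the antisense gene Gm44851 (56 to 114 normalized counts in the 6 libraries), and Tgfbr3 shares 297 with Gm43422 (5 to 18).

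The 3 receptor genes moved differently. Tgfbr1, the type I receptor kinase (chr4:47353222-47414931), stood at 2585, 2363 and 2549 normalized counts in NOD libraries 2, 10 and 18 and at 2769, 2927 and 3136 in B6 libraries 4, 12 and 20. All NOD libraries were below all B6 libraries, by a small margin. The log2 fold change was -0.24 (95% interval -0.46 to -0.02), which did not pass the test once adjusted over all genes (limma adjusted p = 0.21). Tgfbr2, the type II receptor kinase that binds the ligand first (chr9:116084293-116175360), lay the other way, at 4564, 5135 and 4315 in NOD and 3725, 4192 and 3976 in B6. Again the strains did not overlap. Its log2 fold change was 0.23 (95% interval 0.003 to 0.47, limma adjusted p = 0.24) and it was not called.

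Tgfbr3 encodes betaglycan, a co-receptor without kinase activity that presents ligand to the type II receptor and can be shed to trap it. Of the 10 it had the lowest level and the widest fold change (chr5:107106570-107289629). It stood at 351, 349 and 387 normalized counts in NOD libraries 2, 10 and 18 and at 62, 135 and 135 in B6 libraries 4, 12 and 20. The NOD libraries were close to each other and well above B6, where library 4 was the lowest. The NOD mean was 3.27 times the B6 mean. The log2 fold change was 1.79 (95% interval 1.19 to 2.38, limma adjusted p = 0.0012), and 1.42 without B6 library 4 (adjusted p = 0.00092). The call was kept in all 17 alternative settings. The authors' deposited table gave Tgfbr3 as 1.72 (SE 0.22, adjusted p = 3.7e-13). Stromal cells also express betaglycan. The 8 markers of stroma, endothelium and epithelium summed to 2617 to 2873 normalized counts in NOD and 2092 to 2502 in B6, nearly all from Pecam1, which T cells also express. Pdgfra was at 0 or 1, Cdh5 at 0 to 6 and Col1a1 at 2 to 8 in the 6 libraries, and Col3a1 was at 37 in NOD library 2 and 0 or 1 elsewhere. Of the epithelial markers, Epcam stood at 149 to 218 in NOD and 195 to 285 in B6 and was not called (limma adjusted p = 0.27). Krt8 was at 9 to 23 and Krt5 at 2 to 9 in the 6 libraries. The part of these cells in the Tgfbr3 result was not tested.

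Neither SMAD gene was called. Smad3, which carries the signal to the nucleus (chr9:63646767-63757994), stood at 2057, 2777 and 1970 normalized counts in NOD libraries 2, 10 and 18 and at 2303, 2388 and 2088 in B6 libraries 4, 12 and 20. The NOD libraries spanned the whole B6 range. Its log2 fold change was -0.01 (95% interval -0.31 to 0.29, limma adjusted p = 0.98). Smad7, the inhibitor that the pathway induces, stood at 1386, 1861 and 1556 in NOD and at 1276, 1506 and 1185 in B6. NOD library 2 lay inside the B6 range and the other NOD libraries above it. The log2 fold change of Smad7 was 0.27 (95% interval -0.03 to 0.57, limma adjusted p = 0.31).

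**Figure D2:**
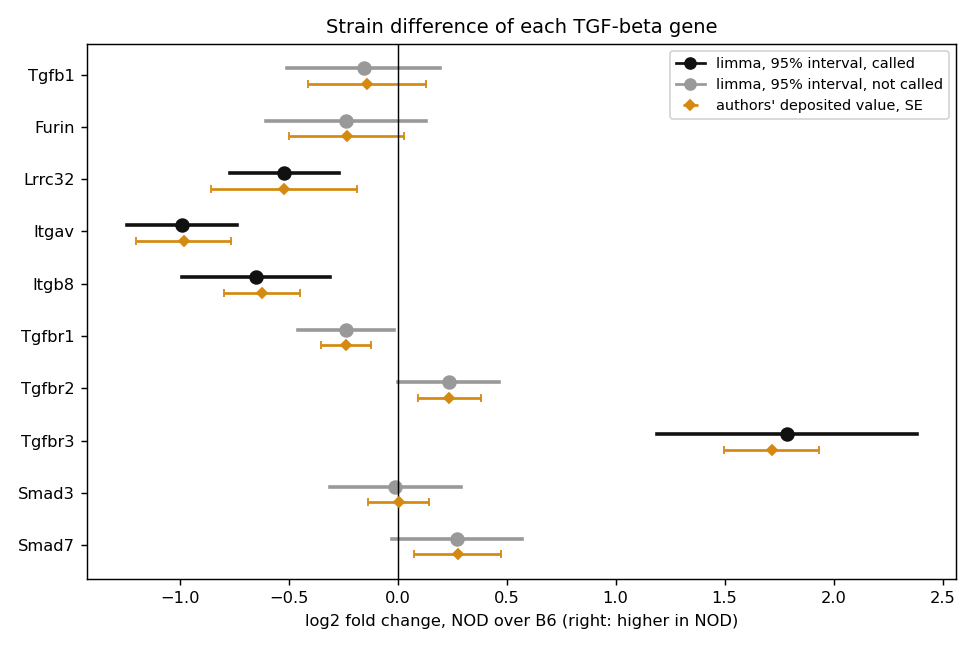
Log2 fold change of NOD over B6 for each of the 10 genes (horizontal axis), with limma's 95% interval (circles, black where called and grey where not) and the authors' deposited value with its SE (diamonds). Itgav, Itgb8 and Lrrc32 lie at -0.99, -0.65 and -0.52, Tgfbr3 lies at 1.79, and the other 6 lie between -0.24 and 0.27.

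Both estimates shown in the plot of fold changes were close in size, and they differed in their errors, by most for Lrrc32 (SE 0.11 with limma and 0.33 in the authors' deposited table). The mean level given in the authors' deposited table was 0.37 (Itgav) to 2.21 (Tgfbr3) times the mean of the 6 columns, so that table does not rest on these 6 libraries alone.

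Levels were set against each other per kilobase of annotated exon. In B6 the order of mean level, in normalized counts per kilobase, was Lrrc32 (2566), Itgav (1247), Tgfbr2 (484), Tgfbr1 (451), Itgb8 (441), Smad3 (408), Furin (325), Smad7 (292), Tgfb1 (215) and Tgfbr3 (16.9). Lrrc32 and Itgav each stood clear of their neighbours, as did Tgfb1 and Tgfbr3, while from Tgfbr2 to Smad7 every neighbouring pair overlapped between libraries. In NOD the order of level per kilobase was Lrrc32 (1786), Itgav (631), Tgfbr2 (571), Smad3 (409), Tgfbr1 (382), Smad7 (354), Itgb8 (286), Furin (277), Tgfb1 (195) and Tgfbr3 (55.4). There the range of Itgav (567 to 728 per kilobase) overlapped that of Tgfbr2 (527 to 627), which it did not in B6. Lrrc32 stood clear above Itgav in NOD, Tgfbr2 clear above Smad3, and Tgfb1 clear of both its neighbours. Itgb8 overlapped Smad7 and Furin in NOD, and Tgfbr1 and Smad3 in B6.

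Ratios of partner genes within a library do not depend on how libraries were scaled. Itgav to Itgb8 was 1.92, 2.20 and 2.43 in NOD libraries 2, 10 and 18 and 2.60, 2.88 and 2.78 in B6 libraries 4, 12 and 20. All NOD ratios were below all B6 ratios, so the alpha V transcript was lower relative to beta 8 in NOD. The log2 difference was -0.34 (exact permutation test, two-sided, p = 0.10, the smallest that 3 against 3 allow, and 0.13 adjusted over 4 ratios). Tgfbr1 to Tgfbr2 was 0.57, 0.46 and 0.59 in NOD and 0.74, 0.70 and 0.79 in B6, also without overlap (log2 difference -0.47, exact p = 0.10, adjusted 0.13). Smad3 to Smad7 was 1.48, 1.49 and 1.27 in NOD and 1.80, 1.59 and 1.76 in B6 (log2 difference -0.28, exact p = 0.10, adjusted 0.13). Lrrc32 to Tgfb1, the dock relative to the ligand, overlapped between strains at 9.99, 7.28 and 8.85 in NOD and 10.6, 9.12 and 14.2 in B6 (log2 difference -0.36, exact p = 0.20, adjusted 0.20). No ratio could pass a threshold of 0.05 with this number of libraries.

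**Figure D3:**
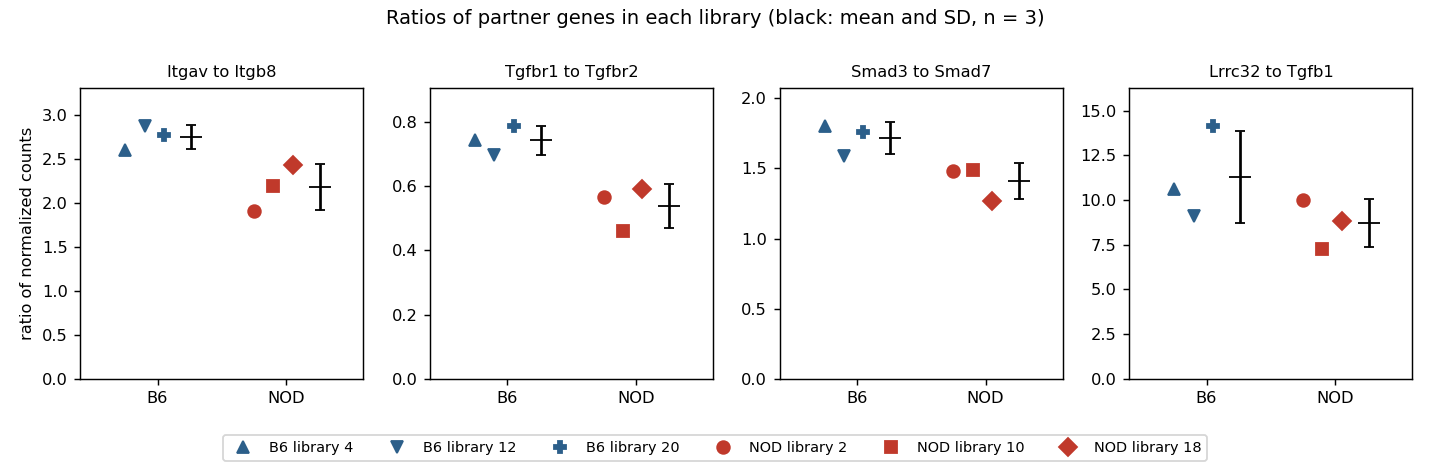
Ratio of normalized counts of partner genes in each library (vertical axes, from 0), B6 in blue and NOD in red, with the mean and SD (n = 3) in black. The NOD libraries lie below the B6 libraries for Itgav to Itgb8 (1.92 to 2.43 against 2.60 to 2.88), Tgfbr1 to Tgfbr2 and Smad3 to Smad7, and overlap them for Lrrc32 to Tgfb1.

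Among libraries of one strain the genes did not share an order. NOD library 10 was the highest of its strain for 5 of the 10 (Tgfb1, Furin, Tgfbr2, Smad3 and Smad7) and the lowest for 3 (Itgav, Tgfbr1 and Tgfbr3), where it was the highest for 39.9% of all genes tested and the lowest for 38.0%. Tgfbr2, Smad3 and Smad7 were highest in NOD library 10 and also in B6 library 12, the libraries with low mt-Rnr2, as were 2473 of the 16442 genes tested. The part of that library difference in these values was not tested. With a covariate for both libraries the same 4 genes were called and no other (limma adjusted p = 2.4e-05 for Itgav, 0.00052 for Tgfbr3, 0.0037 for Lrrc32 and 0.0067 for Itgb8), with 0.097 for Smad7 and 0.11 for Tgfbr2.

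**Figure D4:**
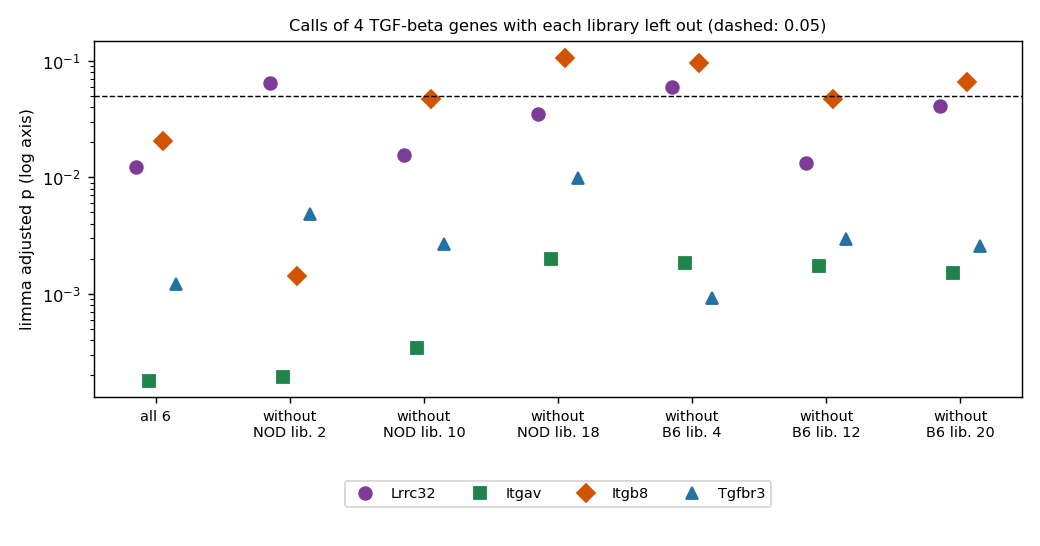
Limma adjusted p (vertical log axis) of the 4 called genes with all 6 libraries and with each library left out, with a dashed line at 0.05. Itgav and Tgfbr3 stay below the line throughout, Lrrc32 rises above it without NOD library 2 or B6 library 4, and Itgb8 rises above it when NOD library 18 or either of B6 libraries 4 and 20 is left out.

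Beyond the 10, the pathway lists apart from the BMP and activin branch held 45 further tested genes, of which 1 rose and 3 fell, a share of 8.89% against 9.89% of all genes tested. Their median log2 fold change was -0.02. Calls lay in the activating integrins, the TAK1 branch and the target genes. Of 4 further activators tested, Itgb5, another beta chain that pairs with alpha V, fell, at 48, 88 and 55 normalized counts in NOD libraries 2, 10 and 18 and 171, 163 and 131 in B6 libraries 4, 12 and 20 (log2 fold change -1.31, SE 0.26, limma adjusted p = 0.0068). Itgb1, a beta chain that alpha V shares with many other alpha chains, rose, at 11945, 13101 and 15780 in NOD and 8308, 7342 and 7821 in B6 (0.79, SE 0.12, limma adjusted p = 0.0013). Itgb3, at 1093 to 1254 in NOD and 1095 to 1561 in B6, was not called (limma adjusted p = 0.80). The beta chains that can join alpha V therefore included 2 that fell (Itgb8 and Itgb5), 1 that rose (Itgb1) and 1 that was not called, while Itgb6 was at 0 to 7 and not tested.

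Of the other ligands, Tgfb2 was at 9 to 19 normalized counts in the 6 libraries and Tgfb3 at 72 to 98, and neither was called. Among latency and processing genes, Nrros, which holds latent TGF-beta on myeloid cells, stood at 634 to 802 in NOD and 669 to 851 in B6 (log2 fold change -0.08, limma adjusted p = 0.82). Pcsk7, a convertase related to furin, stood at 1117 to 1329 and 1139 to 1185 (0.08, limma adjusted p = 0.77). Of the 4 latent TGF-beta binding proteins of the matrix, Ltbp1 (12 to 59) was the one that passed the filter, and it was not called. None of 3 further receptor genes was called, with Bambi, a decoy receptor, at 138 to 220 in NOD and 210 to 290 in B6 (-0.48, limma adjusted p = 0.23). Acvrl1 was at 14 to 29 and 7 to 10, without overlap (1.02, limma adjusted p = 0.22). Eng lay the other way, at 5 to 9 in NOD and 15 to 22 in B6. It passed the filter through its B6 values alone, so these are given with no test.

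None of 6 further SMAD and partner genes was called. Smad2, which shares the receptor with Smad3, had a log2 fold change of 0.02 (limma adjusted p = 0.97) and Smad4, the partner of both, 0.20 (0.31). None of 13 further negative regulators was called either. Their median log2 fold change was 0.01. Ski (0.01, limma adjusted p = 0.97) and Skil (-0.04, 0.89) are co-repressors that bind SMAD proteins, and Skil was at 11726 to 12986 normalized counts in every library. The nearest to a call was Nedd4l, a ubiquitin ligase that acts on SMAD proteins, at 134 to 158 in NOD and 190 to 257 in B6 (-0.62, limma adjusted p = 0.053), which passed without NOD library 10 (0.046) or B6 library 20 (0.033) and with the covariate for low mt-Rnr2 (0.027). None of 4 tested genes that favour receptor stability was called.

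Of 7 further target genes tested, 1 fell and 6 were not called. Nt5e, the gene of CD73, an enzyme that makes adenosine, was the one that fell, at 3525, 5004 and 3596 normalized counts in NOD libraries 2, 10 and 18 and 11572, 12773 and 10734 in B6 libraries 4, 12 and 20 (log2 fold change -1.55, SE 0.14, limma adjusted p = 2.99e-05). Itgae, the CD103 chain, stood at 5648 to 8531 in NOD and 6853 to 8471 in B6 (-0.11, limma adjusted p = 0.79). Pmepa1 and Ldlrad4, feedback inhibitors induced by the pathway, had log2 fold changes of -0.04 and -0.09 (limma adjusted p = 0.91 and 0.81). In the TAK1 branch, which TGF-beta receptors use beside SMAD proteins, Traf4 was the 1 of 6 genes that fell (-0.57, SE 0.13, limma adjusted p = 0.014). Any 1 of 4 omissions ended that call: NOD libraries 2 and 18 (limma adjusted p = 0.070 and 0.062) and B6 libraries 4 and 12 (0.072 and 0.070). Map3k7, the kinase TAK1 itself, was at 2487 to 2572 in NOD and 2202 to 2235 in B6 (0.19, limma adjusted p = 0.30).

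**Figure D5:**
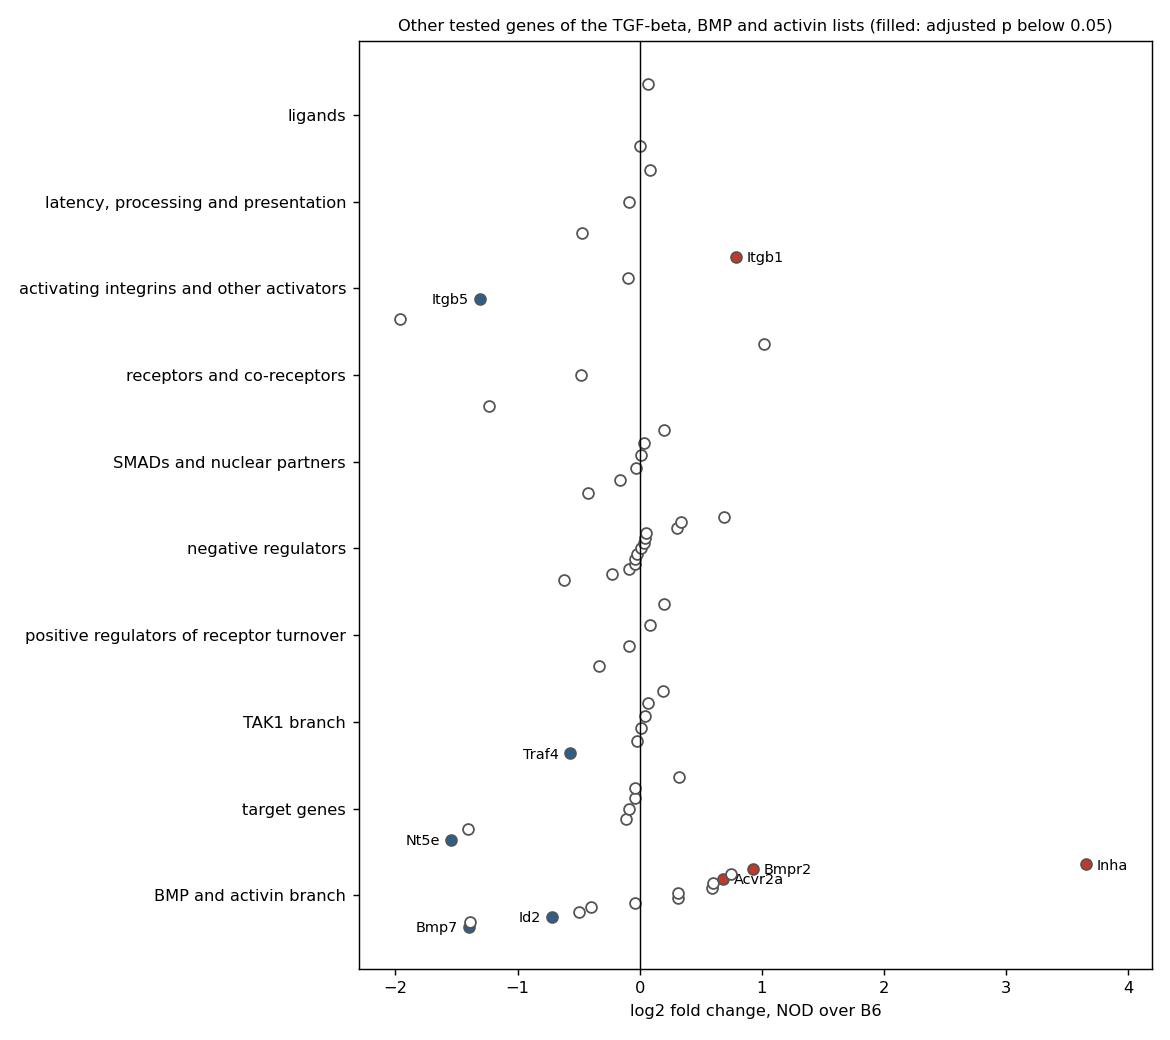
Log2 fold change of NOD over B6 (horizontal axis) of each further tested gene, by list (rows), filled and named where the limma adjusted p was below 0.05 (red higher, blue lower in NOD), with genes spread vertically within a row for legibility. SMAD genes and negative regulators hold no filled point, and the named genes are Itgb1, Itgb5, Traf4, Nt5e and, in the BMP and activin branch, Bmpr2, Acvr2a, Inha, Bmp7 and Id2. The place of Inha, near 0 normalized counts in B6, depends on the pseudocount. Inha passed the filter through its NOD values alone, so its filled point does not support a difference.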

How the data were processed

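Per the labels' protocols, a miRNeasy micro kit gave the total RNA, and TruSeq Standard Total RNA libraries were made from it. The submitters' processing notes name Trimmomatic, STAR, DESeq2 and mm10, the genome of B6, without versions. The counter, the annotation and the strand setting were not given in the sources used here. The effect of aligning NOD reads to the B6 genome was not tested. The 6 sample columns are scores, marked as normalized per the file headers and held as whole numbers. The authors' log2 fold change, its error, their p-value and its adjusted form stand beside them in the deposited table, with their mean and test statistic as scores. Columns were tied to strain by name and to no replicate number.

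The columns hold scaled and rounded values with size factors that were only estimated. Raw reads could thus be recovered only approximately, and no count test was run. Genes were kept at 10 or more normalized counts in 3 libraries (in 2 when 1 was omitted) and fitted with limma 3.58.1 (R 4.3.3) on log2(value + 1), by strain alone, with a variance trend. P-values were two-sided, with Benjamini-Hochberg adjustment over all genes tested. This scale understates fold changes of low genes. The fit and the estimate of counted reads were tested on simulated data. Genes in the simulated fit varied independently, with the same spread setting for all and no library effect but scaling. That test therefore does not measure the error of the calls above. Ratios were tested with scipy 1.17.1. Coordinates, exon lengths and overlaps come from GENCODE M21 (GRCm38, as mm10), joined by symbol, and promoters from RefSeq. The genes, their lists and the tests were chosen with earlier results of these data known. Named are the 10 genes, up to 4 called genes per direction and list, Smad2, Smad4, Ski, Skil, Nrros, Itgb1, Itgae and the sort genes. Other genes were named after their values were seen.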

Additional observations from a re-analysis of the deposited data

How the results depend on the processing

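The log2 fold changes of the 10 genes were recomputed under 17 alternatives (pseudocount, filter, scaling, variance model, library omission and a covariate added after seeing the data), 170 values in all. Of these, 162 kept their side of the threshold and 8 lost a call, 5 of Itgb8 and 3 of Lrrc32. Without a variance trend 1 of the 10 was called lower, as Lrrc32 (limma adjusted p = 0.091) and Itgb8 (0.14) were lost. Over single omissions the number called lower ranged from 1 (without B6 library 4) to 3, and the number called higher was 1. Without both low mt-Rnr2 libraries 2 were called lower and 1 higher. Among all genes tested, single omissions gave 490 (without NOD library 18) to 781 called higher and 569 (without B6 library 4) to 1011 lower, against 755 and 871 with all libraries. For the further pathway genes they gave 3 to 5 higher and 4 to 8 lower, against 4 and 5 with all libraries. The 4 called higher included Inha, which passed the filter through its NOD values alone. The 8 came without NOD library 10, when Thbs1, Nedd4l (limma adjusted p = 0.046) and Id1 were added. Without that library Thbs1 and Id1 passed the filter through their B6 values alone, so their calls do not support a difference. Equal totals moved the median log2 fold change of all genes tested from 0.01 to -0.03. The log2 ratio differences over single omissions were -0.25 to -0.42 (Itgav to Itgb8), -0.36 to -0.54 (Tgfbr1 to Tgfbr2), -0.20 to -0.34 (Smad3 to Smad7) and -0.19 to -0.51 (Lrrc32 to Tgfb1). The cause of these shifts was not tested. No paired analysis was possible because the columns carry numbers other than the replicate numbers of the labels. The median 95% interval of all genes tested reached 0.45 to either side of the log2 fold change, and the number of libraries, 3 per strain, limits this precision.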

Other observations

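The BMP and activin branch, whose receptors and ligands are relatives of the TGF-beta ones, held 14 tested genes, of which 3 rose in NOD, 2 fell and 9 were not called, where 9.89% of all genes tested were called. Inha, among the 3 that rose, passed the filter through its NOD values alone, so it had to differ and the count does not support a difference in the branch. The median log2 fold change of the branch was 0.31, against 0.01 over all genes tested. Bmpr2, the type II receptor for BMP ligands, stood at 2406, 1993 and 2572 normalized counts in NOD libraries 2, 10 and 18 and at 1374, 1173 and 1108 in B6 libraries 4, 12 and 20. Every NOD library was above every B6 library (log2 fold change 0.93, SE 0.13, limma adjusted p = 0.00063). Acvr2a, a type II receptor for activins, stood at 663, 709 and 785 in NOD and 516, 423 and 408 in B6 (0.68, SE 0.14, limma adjusted p = 0.0073). Omitting NOD library 18 (limma adjusted p = 0.051), or both libraries low in mt-Rnr2 (0.059), ended that call. The SMAD genes of the branch, Smad1 (193 to 271 in NOD and 115 to 214 in B6, limma adjusted p = 0.18) and Smad5 (886 to 1019 and 683 to 881, 0.19), were not called.

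Inha, the inhibin alpha chain, was at 13, 21 and 12 normalized counts in NOD libraries 2, 10 and 18 and at 1, 0 and 0 in B6 libraries 4, 12 and 20, given here as values with no test. Bmp7, a BMP ligand, fell, at 46, 73 and 73 in NOD and 168, 185 and 149 in B6 (log2 fold change -1.40, SE 0.24, limma adjusted p = 0.0025). Id2, a transcriptional regulator induced by BMP signalling in many cells, also fell, from 4241 to 2581 in the mean (-0.72, SE 0.11, limma adjusted p = 0.0015), while its relative Id3 was at 90 to 132 in NOD and 138 to 152 in B6 and was not called (limma adjusted p = 0.20).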
